A study of Mus musculus with 18 samples.

Results

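The Cyp4 fatty acid omega-hydroxylase genes measured in mouse liver were examined across 3 strains and 2 treatments. The genes were taken by exact gene symbol from a table of 37303 genes, and comprised 10 members: Cyp4a10, Cyp4a12a, Cyp4a12b, Cyp4a14, Cyp4a31, Cyp4a32, Cyp4f13, Cyp4f14, Cyp4f15 and Cyp4v3. RNA-Seq of liver was performed in 18 mice on the C57BL/6J background, divided into 6 groups of 3 mice each. Wild type mice (WT), mice with a whole-body homozygous deletion of Gcn2 (Gcn2-/-) and mice with a whole-body homozygous deletion of Atf4 (Atf4-/-) each received 8 daily intraperitoneal injections of asparaginase (ASNase, 3 IU per gram body weight) or of the excipient, phosphate buffered saline (PBS), and livers were collected 7.5 h after the last injection. ASNase is an anti-leukemic enzyme that removes circulating asparagine and glutamine, GCN2 is the kinase that senses the resulting amino acid shortage, and ATF4 is the transcription factor made in response. Mice were between 8 and 16 weeks of age by the sample labels, and each group mixed the sexes: 1 of 3 mice was male in WT PBS, Gcn2-/- PBS and Gcn2-/- ASNase, and 2 of 3 were male in WT ASNase, Atf4-/- PBS and Atf4-/- ASNase.

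CYP4 enzymes are membrane-bound cytochromes P450 of the endoplasmic reticulum that place a hydroxyl group on the last (omega) carbon of a fatty acid, using electrons passed on by P450 oxidoreductase. Alcohol and aldehyde dehydrogenases then turn the product into a dicarboxylic acid that is shortened in peroxisomes, a route that gains weight in fasting and when mitochondrial beta-oxidation is limited. In mouse liver Cyp4a10 and Cyp4a14 are classical targets of the fatty acid receptor PPAR alpha, Cyp4a12a is the main producer of the arachidonic acid metabolite 20-HETE and is more abundant in males, and the Cyp4f enzymes act on leukotrienes and other long or branched chains. Cyp4v3 is the mouse counterpart of human CYP4V2, an omega-hydroxylase of medium-chain and polyunsaturated fatty acids.

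The genes sit in 2 clusters and 1 separate locus (positions from GENCODE M21, on GRCm38, which is the mm10 build that the files use). The 6 Cyp4a members lie within 323 kb at chr4:115299046-115621602, in the order Cyp4a12a, Cyp4a12b, Cyp4a14, Cyp4a10, Cyp4a31 and Cyp4a32, with Cyp4a14 alone on the minus strand. The 3 Cyp4f members lie within 262 kb at chr17:32685627-32947402, in the order Cyp4f15, Cyp4f14 and Cyp4f13, and Cyp4v3 lies at chr8:45304944-45333216 on the minus strand. All 10 are annotated as protein-coding, with 11 to 13 exons in the coding transcript that has most of them. The table gives Cyp4v3 a wider locus that starts at 45269442, so its value may include reads from transcripts outside the annotated gene.

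Several of these genes are near-identical copies, which limits how far reads of 100 bases can be assigned to one of them. The stretches below are 100 coding bases around the codon of the cysteine that holds the heme iron, the invariant residue of every P450, and are shown because the closest copies cannot be told apart in them. In the Cyp4a set, capitals mark bases that differ from Cyp4a12a, and in Cyp4a12a itself the cysteine codon.
Cyp4a12a: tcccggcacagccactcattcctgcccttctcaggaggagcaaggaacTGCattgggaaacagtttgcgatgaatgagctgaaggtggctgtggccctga
Cyp4a12b: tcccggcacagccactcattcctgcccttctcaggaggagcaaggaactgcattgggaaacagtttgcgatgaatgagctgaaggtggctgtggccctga
Cyp4a10: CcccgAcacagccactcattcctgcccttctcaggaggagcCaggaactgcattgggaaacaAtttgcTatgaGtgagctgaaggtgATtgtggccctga
Cyp4a14: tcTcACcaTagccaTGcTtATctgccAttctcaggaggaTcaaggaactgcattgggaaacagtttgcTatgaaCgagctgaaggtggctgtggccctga
The Cyp4a12a stretch lies at chr4:115328959-115331889 and spans 2 exons, as do the other stretches of this set: Cyp4a12b at chr4:115435213-115438112, Cyp4a10 at chr4:115529475-115532586 (all plus strand) and Cyp4a14 at chr4:115487256-115489832 (minus strand). Cyp4a12a and Cyp4a12b differed at 0 of the 100 bases, and the stretches of Cyp4a31 and Cyp4a32 differed from that of Cyp4a10 at 0 bases. Cyp4a10 differed from Cyp4a12a at 8 bases and Cyp4a14 from Cyp4a12a at 13. In the Cyp4f set, capitals mark bases that differ from Cyp4f14, and in Cyp4f14 itself the cysteine codon.
Cyp4f14: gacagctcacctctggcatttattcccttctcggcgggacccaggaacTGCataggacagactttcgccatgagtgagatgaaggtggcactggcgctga
Cyp4f15: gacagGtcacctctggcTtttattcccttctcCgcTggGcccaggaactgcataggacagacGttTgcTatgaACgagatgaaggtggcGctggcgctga
Cyp4f13: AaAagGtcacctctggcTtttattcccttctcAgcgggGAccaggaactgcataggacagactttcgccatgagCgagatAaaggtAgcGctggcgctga
These stretches lie at chr17:32905623-32906092 (Cyp4f14, minus strand), chr17:32702371-32702844 (Cyp4f15, plus strand) and chr17:32924899-32925367 (Cyp4f13, minus strand). Cyp4f15 and Cyp4f13 each differed from Cyp4f14 at 11 bases.

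The copies can be separated elsewhere in their coding sequence. Over all 1527 coding bases, Cyp4a12a and Cyp4a12b differed at 23 positions (98.5% identity), of which 8 fell in the 100 bases shown next, coding bases 664 to 763 counted from the start codon. Capitals mark the differing positions.
Cyp4a12a: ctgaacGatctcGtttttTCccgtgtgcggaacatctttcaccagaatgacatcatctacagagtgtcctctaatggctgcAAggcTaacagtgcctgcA
Cyp4a12b: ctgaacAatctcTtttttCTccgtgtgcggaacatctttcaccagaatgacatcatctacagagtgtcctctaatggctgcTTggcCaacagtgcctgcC
They lie at chr4:115326662-115326761 and chr4:115432915-115433014, each within 1 exon on the plus strand. Cyp4a10, Cyp4a31 and Cyp4a32 varied at 77 of 1530 coding positions, of which 13 fell in coding bases 162 to 261.
Cyp4a10: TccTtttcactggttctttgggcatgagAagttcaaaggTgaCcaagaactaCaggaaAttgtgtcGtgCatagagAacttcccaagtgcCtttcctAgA
Cyp4a31: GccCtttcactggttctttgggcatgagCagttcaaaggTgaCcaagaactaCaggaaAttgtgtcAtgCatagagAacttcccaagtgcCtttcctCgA
Cyp4a32: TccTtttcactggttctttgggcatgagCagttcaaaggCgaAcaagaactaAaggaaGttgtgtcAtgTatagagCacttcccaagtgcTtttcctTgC
These lie at chr4:115518483-115519701, chr4:115563878-115565081 and chr4:115601136-115602331, each over 2 exons on the plus strand. A read over these differing bases can name its gene, whereas one from the heme stretch cannot separate Cyp4a12a from Cyp4a12b, or Cyp4a10, Cyp4a31 and Cyp4a32 from one another.

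Of all 100-base windows of the Cyp4a12a transcript, 832 of 2323 (35.8%) matched another Cyp4 gene without a mismatch and 64.4% with up to 2 mismatches. All 1497 of the latter matched Cyp4a12b. For Cyp4a32 these shares were 20.1% and 61.7%, for Cyp4a10 12.7% and 50.3%, and for Cyp4a31 8.22% and 27.6%. Cyp4a14 and Cyp4v3 had 0 such windows, and the 3 Cyp4f members had between 0.483% and 1.79% with up to 2 mismatches. The split of reads within Cyp4a12a and Cyp4a12b, and within Cyp4a10, Cyp4a31 and Cyp4a32, is therefore uncertain, and sums over both sets are given with the results.

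**Figure D1:**
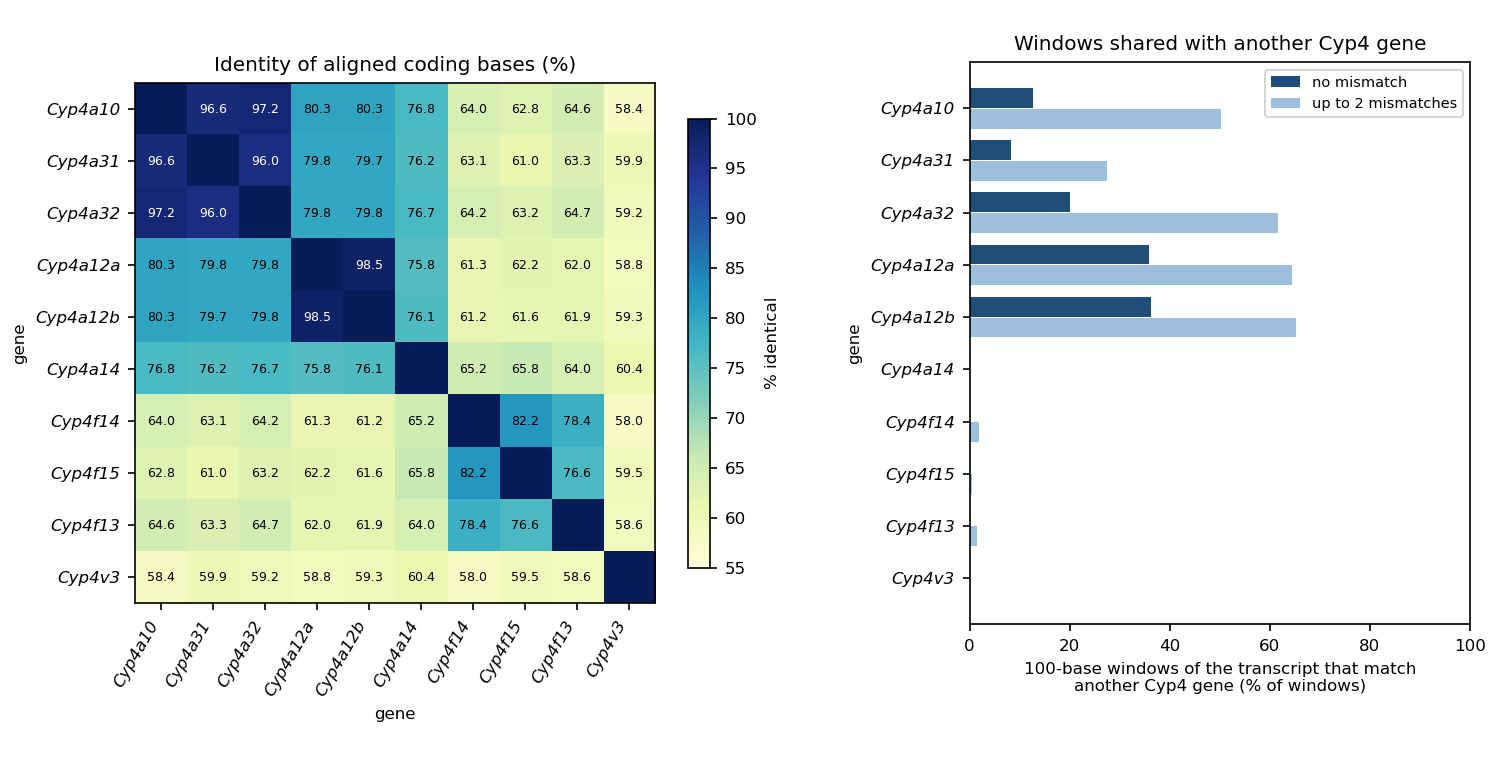
Left, identity of aligned coding bases (%) for each pair of the 10 Cyp4 genes. Right, the share of 100-base windows of each transcript (%) that match another Cyp4 gene with 0 (dark) or up to 2 (light) mismatches. Cyp4a12a and Cyp4a12b share 98.5% of coding bases, Cyp4a10, Cyp4a31 and Cyp4a32 share 96.0% to 97.2%, and pairs from different subfamilies share 58.0% to 65.8%.

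The table holds 1 FPKM (read fragments relative to transcript length and to the total mapped) for each gene and group, pooled over its 3 mice, with a lower and an upper bound and no value for single mice. Levels of different genes may be compared because FPKM is per length. No test, p-value or standard deviation could be computed, and the interval between the bounds is the only error. A gene entered a comparison (was eligible) if its 2 values were both positive with status OK and at least 1 of them exceeded 3 FPKM, and it was called when log2(FPKM + 0.1) differed by more than 1.5 and the intervals did not overlap. All 10 members were eligible in all 7 comparisons, and their bounds lay 45.1% to 160% (median 57.6%) above and below the FPKM, except where the lower bound reached 0. Hepatocyte markers (7 of 11 with status OK throughout) summed to between 11258 and 35566 FPKM, so the tissue was liver in every group. RNA typical of other tissues differed between groups. Skeletal muscle markers (8 genes) summed to 807 FPKM in WT PBS and 1158 in WT ASNase against 5.78 to 143 elsewhere, pancreatic acinar markers (7 genes) to 53.1 in WT ASNase and 301 in Atf4-/- ASNase against 4.94 to 14.0, and lung epithelial markers (5 genes) to 134 in WT PBS against 0.974 to 2.35. The whole-gene values of the deleted genes did not separate the strains: Eif2ak4, which encodes GCN2, was between 2.19 and 3.14 FPKM in every group, and Atf4 was 32.3 and 29.3 FPKM in the Atf4-/- groups against 50.4 to 68.1 in the others with overlapping intervals, so the groups are named as labelled. The study examined the deletions by read density over the genes and Atf4 also by RT-qPCR, data that were not analysed here.

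Cyp4a14 and Cyp4a10 were the most abundant Cyp4 transcripts of WT liver. In WT PBS, Cyp4a14 was at 363 FPKM (interval 163 to 564) and Cyp4a10 at 283 (136 to 430). Cyp4f14 followed at 136 (73.0 to 200), then Cyp4v3 at 94.5 (32.5 to 156), Cyp4f15 at 73.8 (37.5 to 110), Cyp4a12a at 63.3 (13.8 to 113) and Cyp4f13 at 37.9 (20.0 to 55.7). Cyp4a12b, Cyp4a32 and Cyp4a31 were lowest, at 14.0, 12.9 and 9.35 FPKM. Adjacent members of this order had overlapping intervals, so only wider steps, such as Cyp4a10 above Cyp4f13, exceeded the error. The 6 Cyp4a genes summed to 746 FPKM, of which Cyp4a14 made 48.7% and Cyp4a10 37.9%.

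**Figure D2:**
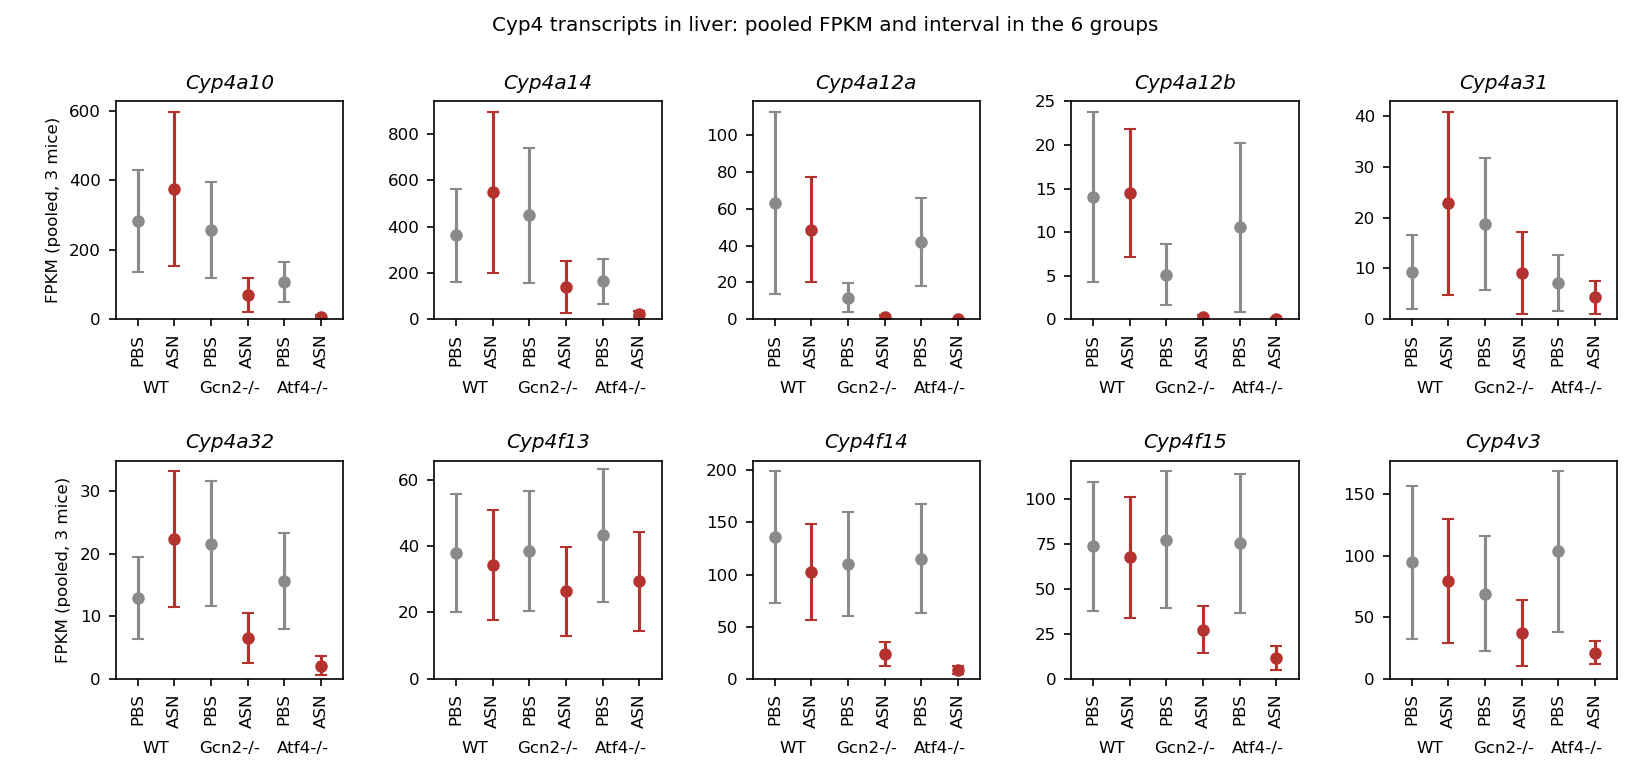
Pooled FPKM (points) with lower and upper bounds (bars) of each Cyp4 gene in WT, Gcn2-/- and Atf4-/- liver after PBS (grey) or ASNase (ASN, red), 3 mice per group. The vertical scale starts at 0 and differs between panels. In 9 of the 10 panels the lowest point is Atf4-/- ASNase, and the exception is Cyp4f13, whose lowest point is Gcn2-/- ASNase at 26.4 FPKM.

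In WT mice, ASNase left the Cyp4 genes within the error. None of the 10 members was called, where 0.881% of 9084 eligible genes were called. Cyp4a10 was at 375 FPKM (153 to 598) after ASNase against 283 after PBS, and Cyp4a14 at 548 (199 to 897) against 363. Cyp4a31 had the widest difference, 22.8 FPKM (4.85 to 40.8) against 9.35 (2.06 to 16.6), or 1.28 on the log2 scale. Cyp4a32 was at 22.3 FPKM against 12.9, Cyp4a12b at 14.5 against 14.0 and Cyp4a12a at 48.7 against 63.3. Among the remaining genes, Cyp4f14 was at 102 FPKM against 136, Cyp4f15 at 67.7 against 73.8, Cyp4f13 at 34.3 against 37.9 and Cyp4v3 at 79.2 against 94.5. Of the members, 5 had a log2 difference above 0, all of them Cyp4a genes, and 5 had one below 0. The WT groups differ in labelled sex (1 and 2 males of 3), with the Y-linked gene Ddx3y at 5.62 FPKM after PBS and 11.6 after ASNase, and the part of sex in these differences was not tested.

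In Gcn2-/- mice, 4 of 10 members fell after ASNase: Cyp4a12a, Cyp4a12b, Cyp4a32 and Cyp4f14. Over all 9218 eligible genes, 3.69% were called and 2.13% were called lower. Cyp4a12a was at 11.7 FPKM (3.66 to 19.8) after PBS and 1.25 (0.292 to 2.20) after ASNase, a log2 difference of -3.13. Cyp4a12b was at 5.12 (1.63 to 8.60) and 0.216 (0 to 0.490), or -4.04, a value that rests on the 0.1 added to FPKM and was -2.33 with 1 added. The PBS and ASNase intervals of both genes were apart, and the 2 genes together summed to 16.8 FPKM after PBS and 1.46 after ASNase. Cyp4f14, a leukotriene and vitamin E omega-hydroxylase, was at 110 FPKM (60.4 to 160) after PBS and 23.7 (12.1 to 35.4) after ASNase, or -2.21. Cyp4a32 was at 21.6 (11.6 to 31.5) and 6.52 (2.53 to 10.5), or -1.71.

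The other 6 members were lower in value in Gcn2-/- ASNase than in Gcn2-/- PBS without being called. Cyp4a10 was at 257 FPKM (118 to 397) after PBS and 70.3 (21.3 to 119) after ASNase, a log2 difference of -1.87 with intervals that met by less than 1 FPKM. Cyp4a14 was at 449 (158 to 739) and 139 (26.7 to 251), or -1.69. Cyp4f15 was at 77.6 (39.2 to 116) and 27.3 (14.1 to 40.5), or -1.50. These 3 genes passed the fold but not the interval condition. Cyp4a31 (-1.04), Cyp4v3 (-0.90) and Cyp4f13 (-0.54) passed neither. The median log2 difference over the 10 members was -1.70, and over all eligible genes 0.02. All 10 members were below 0, against 48.5% of all eligible genes.

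In Atf4-/- mice, 8 of 10 members fell after ASNase, where 7.37% of 9485 eligible genes were called and 4.63% were called lower. Cyp4a12a went from 42.0 FPKM (18.2 to 65.7) after PBS to 0.106 (0 to 0.229) after ASNase, a log2 difference of -7.68, and the lower PBS bound was 79.4 times the upper ASNase bound. Cyp4a12b went from 10.6 (0.865 to 20.3) to 0.0553 (0 to 0.144), or -6.10. The ASNase values of both genes had a lower bound of 0, so their log2 differences rest on the 0.1 added to FPKM, and that of Cyp4a12b was -3.46 with 1 added. Their sum was 52.5 FPKM after PBS and 0.161 after ASNase.

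The PPAR alpha targets followed the same direction in Atf4-/- mice. Cyp4a10 went from 107 FPKM (50.6 to 164) to 7.73 (3.54 to 11.9), or -3.78, and Cyp4a14 from 164 (66.2 to 262) to 24.1 (10.6 to 37.6), or -2.76. Cyp4a32 went from 15.6 (7.93 to 23.3) to 2.09 (0.632 to 3.55), or -2.84. Of the Cyp4f genes, Cyp4f14 went from 115 (63.0 to 168) to 8.23 (4.32 to 12.1), or -3.79, and Cyp4f15 from 75.5 (36.6 to 114) to 11.4 (4.73 to 18.1), or -2.71. Cyp4v3 went from 103 (37.8 to 169) to 20.9 (11.5 to 30.4), or -2.30. For all of these genes the whole ASNase interval lay under the PBS interval.

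Cyp4f13 and Cyp4a31 were the exceptions in Atf4-/- mice. Cyp4f13, which neighbors Cyp4f14 on the chromosome and shares 78.4% of its coding bases, was at 43.3 FPKM (23.2 to 63.3) after PBS and 29.4 (14.4 to 44.3) after ASNase, or -0.56. Its values covered only 26.4 to 43.3 FPKM over all 6 groups, with every pair of intervals overlapping. Cyp4a31 was at 7.09 (1.60 to 12.6) and 4.36 (1.12 to 7.59), or -0.69, and its reads can be shared with Cyp4a10 and Cyp4a32. Over the 10 members the median log2 difference was -2.80, against 0.08 over all eligible genes, and all 10 were below 0, against 46.2% of all eligible genes. Cyp4a12a and Cyp4a12b in both knockouts, and Cyp4a32 in Atf4-/-, were eligible through their PBS value alone.

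**Figure D3:**
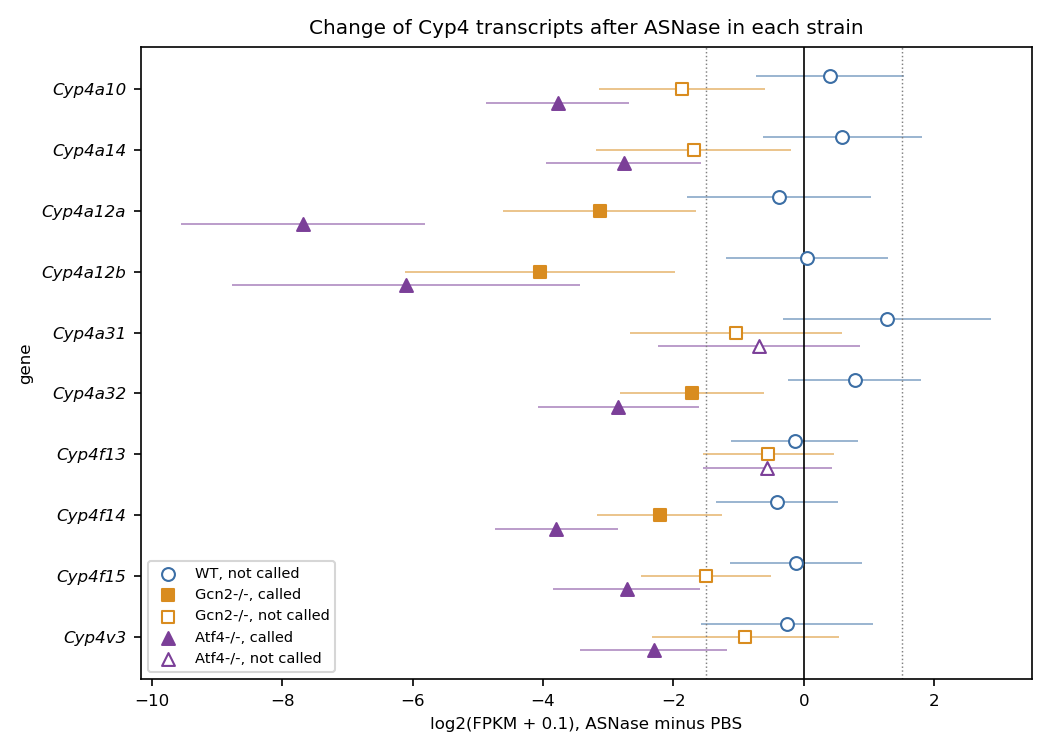
Difference of log2(FPKM + 0.1) between ASNase and PBS for each Cyp4 gene in WT (circles), Gcn2-/- (squares) and Atf4-/- (triangles) mice. Filled symbols were called, dotted lines mark the fold threshold of 1.5, and bars are the 2 groups' interval widths to 1 side, combined as the root of their summed squares. All 10 WT symbols are open, with 4 filled in Gcn2-/- and 8 in Atf4-/-.

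Marker sums were also compared between PBS and ASNase within each knockout. In Atf4-/- ASNase, hepatocyte markers summed to 11258 FPKM against 28905 in Atf4-/- PBS, and in Gcn2-/- ASNase to 21146 against 34965. In Atf4-/-, 6 of 7 eligible markers were below 0, among them Ttr (3541 to 854 FPKM) and Apoa2 (13637 to 3546), while Tat was above 0 (952 to 2013). Of the hepatocyte markers, 0 of 8 eligible genes were called in Gcn2-/- and 0 of 7 in Atf4-/-, with median log2 differences of -0.50 and -1.24. In bulk tissue, fewer cells of a type and less RNA per cell cannot be told apart. Acinar markers summed to 301 FPKM in Atf4-/- ASNase against 14.0 in Atf4-/- PBS, and 5 of 6 eligible ones were called higher. In Gcn2-/- they summed to 9.10 FPKM after PBS and 4.94 after ASNase, with 0 called. Muscle markers summed to 5.78 and 8.85 FPKM in Gcn2-/- PBS and ASNase and to 65.0 and 143 in Atf4-/-, with 0 called. Lung markers had 0 eligible genes in either knockout. The erythroid genes (3 of 5 matched) summed to 80.6 and 8.35 FPKM in Gcn2-/- PBS and ASNase, and to 110 and 4.28 in Atf4-/-, and 2 of the 3 were called lower in each knockout. Among 7 eligible macrophage markers, Marco was called higher in both knockouts and Cd5l lower in Atf4-/-. Of these 7, 3 were below 0 in Gcn2-/- (median 0.33) and 6 in Atf4-/- (median -0.97), where Marco went against its list. The neutrophil gene S100a9 was called lower in Gcn2-/- (1 of 2 eligible) and the fibroblast gene Col3a1 lower in Atf4-/- (1 of 5 eligible). Sinusoidal endothelium markers (7 eligible) had 0 calls. Cholangiocyte markers also had 0, but only 1 of 5 was eligible. Adipose markers (5 genes) summed to between 0.588 and 13.7 FPKM and B cell markers (4 genes) to between 0.268 and 3.28. The part of any of these in the Cyp4 results was not tested. The numbers of males were equal between PBS and ASNase within each knockout, and Ddx3y was 6.20 and 5.88 FPKM in Gcn2-/- and 11.4 and 14.2 in Atf4-/-.

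Summed levels rest less on how reads were split between copies. Some dependence remains, because FPKM is per length and the transcripts of Cyp4a10, Cyp4a31 and Cyp4a32 have 2109, 2509 and 1530 bases. The 6 Cyp4a genes summed to 746 FPKM in WT PBS and 1032 in WT ASNase, to 763 and 226 in Gcn2-/-, and to 346 and 38.4 in Atf4-/-. The ASNase sum was thus 3.37 times lower than the PBS sum in Gcn2-/- and 9.02 times lower in Atf4-/-, while in WT it was 1.38 times higher. The sum of the near-identical Cyp4a10, Cyp4a31 and Cyp4a32 was 305 and 420 FPKM in WT, 298 and 85.8 in Gcn2-/-, and 130 and 14.2 in Atf4-/-. That of Cyp4a12a and Cyp4a12b was 77.4 and 63.2 FPKM in WT. The 3 Cyp4f genes summed to 248 and 204 FPKM in WT, 226 and 77.5 in Gcn2-/-, and 234 and 49.0 in Atf4-/-. These sums carry no interval of their own. Over all 10 members the sums were 1088 and 1315 FPKM in WT, 1059 and 341 in Gcn2-/-, and 684 and 108 in Atf4-/-.

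The makeup of the Cyp4a sum is described by shares that carry no interval, so differences between groups may lie within the error. The shares of Cyp4a10, Cyp4a31 and Cyp4a32, and of Cyp4a12a and Cyp4a12b, also depend on how reads were split. Cyp4a14 made 48.7% of it in WT PBS and 62.7% in Atf4-/- ASNase, and Cyp4a10 37.9% and 20.1%. Cyp4a12a made 8.49% in WT PBS, 1.54% in Gcn2-/- PBS, 12.1% in Atf4-/- PBS and 0.275% in Atf4-/- ASNase. Cyp4a31 made 1.25% in WT PBS and 11.3% in Atf4-/- ASNase. The ratio of Cyp4a14 to Cyp4a10, genes that share no read-length window, lay between 1.28 (WT PBS) and 3.12 (Atf4-/- ASNase), and that of Cyp4a12a to Cyp4a12b between 1.91 and 5.77, both without an interval.

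**Figure D4:**
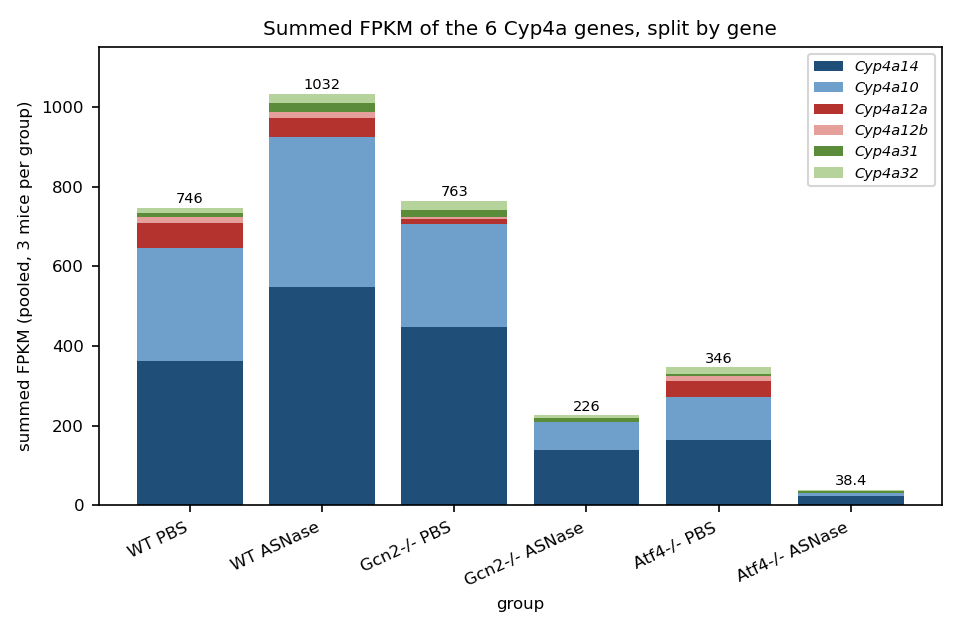
Summed pooled FPKM of the 6 Cyp4a genes in each group of 3 mice, with the part of each gene in color and the total above the bar. Totals are 746 and 1032 in the WT groups, 763 and 226 in Gcn2-/-, and 346 and 38.4 in Atf4-/-.

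The responses of the strains were set against each other through the difference of the log2 changes, with the 4 groups' errors combined as the root of their summed squares. The Gcn2-/- change was below the WT change for all 10 members and beyond the combined error for 7, the exceptions being Cyp4f13, Cyp4f15 and Cyp4v3. Of the 8650 genes eligible in both strains, 3.26% lay below by more than the error. The Atf4-/- change was below the WT change for all 10 and beyond the error for 8, all but Cyp4a31 and Cyp4f13, against 5.90% of 8770 genes. Between the knockouts, 3 of the 10 members, Cyp4a10, Cyp4a12a and Cyp4f14, went beyond the error, against 3.23% of 8911 genes. For Cyp4a12a the changes were -0.38 in WT, -3.13 in Gcn2-/- and -7.68 in Atf4-/-, and the knockouts differed by -4.54 with an error of 2.39. Its Atf4-/- ASNase value (0.106 FPKM, lower bound 0) makes the size of this difference rest on the 0.1 added to FPKM. The error does not include that dependence. For Cyp4a10 the changes were 0.41, -1.87 and -3.78, and the knockouts differed by -1.90 with an error of 1.68. For Cyp4f14 they were -0.42, -2.21 and -3.79, and the knockouts differed by -1.58 with an error of 1.35.

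Compared under ASNase directly, 5 of 10 members were called in Gcn2-/- against WT, where 4.41% of 9423 eligible genes were called, and all 5 were lower: Cyp4a10 (-2.42), Cyp4a12a (-5.18), Cyp4a12b (-5.53), Cyp4a32 (-1.76) and Cyp4f14 (-2.10). In Atf4-/- against WT, 7 of 10 were called, where 8.25% of 9577 eligible genes were called, and all 7 were lower. Cyp4a10 differed by -5.58, Cyp4a14 by -4.50, Cyp4a12a by -7.89 and Cyp4a12b by -6.55. Cyp4a32 differed by -3.35, Cyp4f14 by -3.62 and Cyp4f15 by -2.56. Cyp4a12a and Cyp4a12b in both comparisons, and Cyp4a32 in Atf4-/- against WT, were eligible through their WT ASNase value alone. The median over the 10 members was -1.87 for Gcn2-/- and -3.48 for Atf4-/-. The Gcn2-/- ASNase group had 1 male of 3 and the WT and Atf4-/- ASNase groups 2 of 3. Muscle markers summed to 8.85 FPKM in Gcn2-/- ASNase, 143 in Atf4-/- ASNase and 1158 in WT ASNase, and the part of sex or muscle RNA in these differences was not tested. With 1 added to FPKM, Cyp4a12b differed by -3.67 in Gcn2-/- and -3.88 in Atf4-/-. These comparisons share the WT ASNase group with each other, and the ASNase groups of the knockouts with the comparisons above.

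After PBS alone, none of the 10 members was called in either knockout against WT. In Gcn2-/- against WT, 1.04% of 8920 eligible genes were called, and in Atf4-/- against WT 1.12% of 9039. Cyp4a12a had the widest difference, 11.7 FPKM (3.66 to 19.8) in Gcn2-/- against 63.3 (13.8 to 113) in WT, or -2.42, with overlapping intervals. Each of these groups had 1 male of 3, and the part of that single mouse cannot be seen in a pooled value. Of the 12 male-biased liver genes described below, 10 were also below 0 in Gcn2-/- PBS against WT PBS, and 1 was called lower. Their median was -1.15, against 0.06 over all eligible genes. Cyp4a12b was at 5.12 FPKM against 14.0. In Atf4-/-, Cyp4a10 was at 107 FPKM (50.6 to 164) against 283 (136 to 430), or -1.40, and Cyp4a14 at 164 (66.2 to 262) against 363 (163 to 564), or -1.15, with 2 males of 3 in Atf4-/- against 1 of 3 in WT. Cyp4f13, Cyp4f14, Cyp4f15 and Cyp4v3 had log2 differences between -0.45 and 0.19 in both comparisons. Lung markers were high in WT PBS alone and muscle markers in both WT groups, and their part in these differences was not tested.

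The order of the groups was alike for most members. Atf4-/- ASNase was lowest for 9 of 10 genes and Gcn2-/- ASNase second lowest for 8 of 10. Neighbors in that order had intervals apart in few places. For Cyp4a10 they were apart between Gcn2-/- ASNase (21.3 to 119) and Atf4-/- ASNase (3.54 to 11.9). For Cyp4a12a they were apart on both sides of Gcn2-/- ASNase, for Cyp4a12b between Gcn2-/- PBS and Gcn2-/- ASNase, and for Cyp4f14 between WT ASNase and Gcn2-/- ASNase. For the other 6 genes no neighboring groups were apart. Pearson's r of log2(FPKM + 0.1) over the 6 groups was 0.82 or higher for all 28 pairs of members other than Cyp4a31 and Cyp4f13, and as low as 0.25 between those 2. The groups share strains and treatments, so r describes likeness over 6 points.

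The genes with the most similar pattern were sought for the 5 members with the widest range, among 10171 genes and over the 6 groups. For Cyp4a12a they were C2cd2, BC031353 and Acsf2, an acyl-CoA synthetase (r = 0.997, 0.996 and 0.995). For Cyp4a12b they were Nadk, which makes NADP, the mitochondrial fusion gene Opa1 and the kinase gene Dyrk1b (0.999, 0.998 and 0.997). For Cyp4a10 they were S100a16 (0.998), Cyp4a14 (0.995) and the collagen gene Col3a1 (0.994), and for Cyp4a14 they were Cyp4a10 (0.995), Gm16157 (0.990) and S100a16 (0.989). For Cyp4f14 they were the mitochondrial carrier gene Slc25a23 (0.999), the serine hydroxymethyltransferase gene Shmt1 (0.998) and the monoacylglycerol lipase gene Mgll (0.998). The likeness is in shape and not in size, since S100a16 covered only 16.6 to 26.1 FPKM.

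The Cyp4 genes outside the 10 members were mostly too low to compare. Of 12 listed, 11 were in the table, at most 3 were eligible in a comparison of ASNase with PBS, and 0 of these were called in WT, Gcn2-/- or Atf4-/-. Cyp4b1, which works mainly in lung, was at 10.1 and 9.15 FPKM in WT PBS and ASNase, 6.01 and 5.96 in Gcn2-/-, and 12.2 and 12.8 in Atf4-/-. Cyp4f16 was at 2.10 FPKM in Gcn2-/- PBS and 3.46 in Gcn2-/- ASNase, and at 2.11 and 4.57 in Atf4-/-. Cyp4f17 lay between 2.76 and 5.04 FPKM over the 6 groups.

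PPAR alpha and its targets (32 genes, all matched) were described as the pathway upstream of Cyp4a10 and Cyp4a14. After ASNase, 1 of 31 eligible genes was called higher and 0 lower in WT, 0 higher and 5 of 28 lower in Gcn2-/-, and 2 higher and 12 of 28 lower in Atf4-/-. Median log2 differences were 0.13, -0.89 and -1.58. The receptor gene Ppara was at 44.7 and 63.7 FPKM in WT PBS and ASNase, 60.9 and 39.8 in Gcn2-/-, and 43.8 and 8.52 in Atf4-/-, and was called in none of the 3 strains. Its log2 difference stayed under the threshold in WT (0.51) and Gcn2-/- (-0.61), and in Atf4-/- (-2.35) the intervals overlapped. Acaa1b, a peroxisomal thiolase, fell in Gcn2-/- (584 to 29.3 FPKM, or -4.31 on the log2 scale) and in Atf4-/- (277 to 1.55 FPKM, or -7.40). Fabp1, the liver fatty acid binding protein, fell by 7.35 in Atf4-/- (7629 to 46.6 FPKM), and was at 14306 and 1358 FPKM in Gcn2-/- with overlapping intervals. Acot3, a peroxisomal thioesterase, fell in both knockouts (-2.94 in Gcn2-/- and -6.09 in Atf4-/-). The genes called higher, named after their values were seen, were Fgf21 in WT (2.14 to 29.3 FPKM), a hormone gene also induced by ATF4 that fell in Gcn2-/- (8.31 to 0.782), and in Atf4-/- the thioesterase gene Acot2 (1.14 to 5.90) and the fatty acid translocase gene Cd36 (17.2 to 64.4).

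The enzymes that take the omega-hydroxyl product onward (28 genes, all matched, 27 eligible) had 0 called in WT, 6 lower in Gcn2-/- and 11 lower in Atf4-/-, with median log2 differences of -0.04, -1.01 and -1.53. Adh1, an alcohol dehydrogenase, fell by 3.53 in Atf4-/- (1380 to 119 FPKM) and was at 1945 and 1276 in Gcn2-/-. This list shares called genes with the PPAR alpha list, so their counts are not separate. Shared were Acaa1b, Acot3 and Ehhadh, called lower in both knockouts, and Acsl1 and Acot4, called lower in Atf4-/-. Of the 4 genes listed as electron donors of microsomal P450, 0 were called in WT, 0 in Gcn2-/- and 1 in Atf4-/-. That gene, Cyb5b (99.0 to 30.3 FPKM), encodes the cytochrome b5 of the outer mitochondrial membrane. The microsomal cytochrome b5 gene, Cyb5a, was at 2242 and 1113 FPKM in Gcn2-/- PBS and ASNase and at 1787 and 1084 in Atf4-/-, and was not called. Cyb5r3 was at 216 and 77.5 FPKM in Gcn2-/- and at 101 and 38.9 in Atf4-/-, and was not called either. Median log2 differences of the 4 genes were -0.14, -0.88 and -1.04 in WT, Gcn2-/- and Atf4-/-, with 3 of 4 below 0 in each strain. Por, which supplies electrons to every microsomal P450, was at 186 and 298 FPKM in WT PBS and ASNase, 199 and 239 in Gcn2-/-, and 280 and 363 in Atf4-/-, and was not called.

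Genes that act beside Cyp4 on arachidonic acid and its products (17 genes, 14 eligible) had 0 called in WT, 2 lower in Gcn2-/- and 6 lower in Atf4-/-. Cyp2c44, an arachidonic acid epoxygenase, fell in Gcn2-/- (233 to 47.4 FPKM, or -2.29) and in Atf4-/- (199 to 10.6 FPKM, or -4.23). Ephx2, the soluble epoxide hydrolase that opens the epoxides, fell as well (-1.79 and -3.15), and the epoxygenase gene Cyp2c50 fell in Atf4-/- (-2.51). Median log2 differences of the 14 genes were -0.15, -1.05 and -1.58 in WT, Gcn2-/- and Atf4-/-.

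Because Cyp4a12a is more abundant in males, sex-biased liver genes were counted as well. Of the male-biased genes (12), 0 of 12 eligible were called in WT, 6 of 11 lower in Gcn2-/- and 10 of 12 lower in Atf4-/-, with median log2 differences of -0.06, -1.66 and -3.73. Hsd3b5, a testosterone-metabolizing enzyme, fell in Gcn2-/- (13.1 to 0.180 FPKM, or -5.56) and in Atf4-/- (105 to 0.167 FPKM, or -8.62). Slco1a1, an organic anion transporter, fell in the same strains (-4.52 and -6.90), as did Selenbp2, a selenium-binding protein (-3.73 and -6.63). Of the female-biased genes (20 listed, 19 matched), 1 of 16 was called lower in WT, 5 of 15 lower in Gcn2-/-, and 6 of 17 lower and 1 higher in Atf4-/-, with medians of -0.39, -1.25 and -2.72. A1bg fell in Gcn2-/- (-2.61) and Atf4-/- (-7.80), as did Cyp2c69 (-4.58 and -6.81), and Sult3a1, a sulfotransferase gene, fell in WT (-4.05) and Atf4-/- (-6.59). In the growth hormone and STAT5 list (10 genes, 9 matched), which sets sex-biased expression in liver, 0 were called in WT or Gcn2-/-, and in Atf4-/- 1 of 9 fell, the receptor gene Ghr (207 to 33.7 FPKM).

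**Figure D5:**
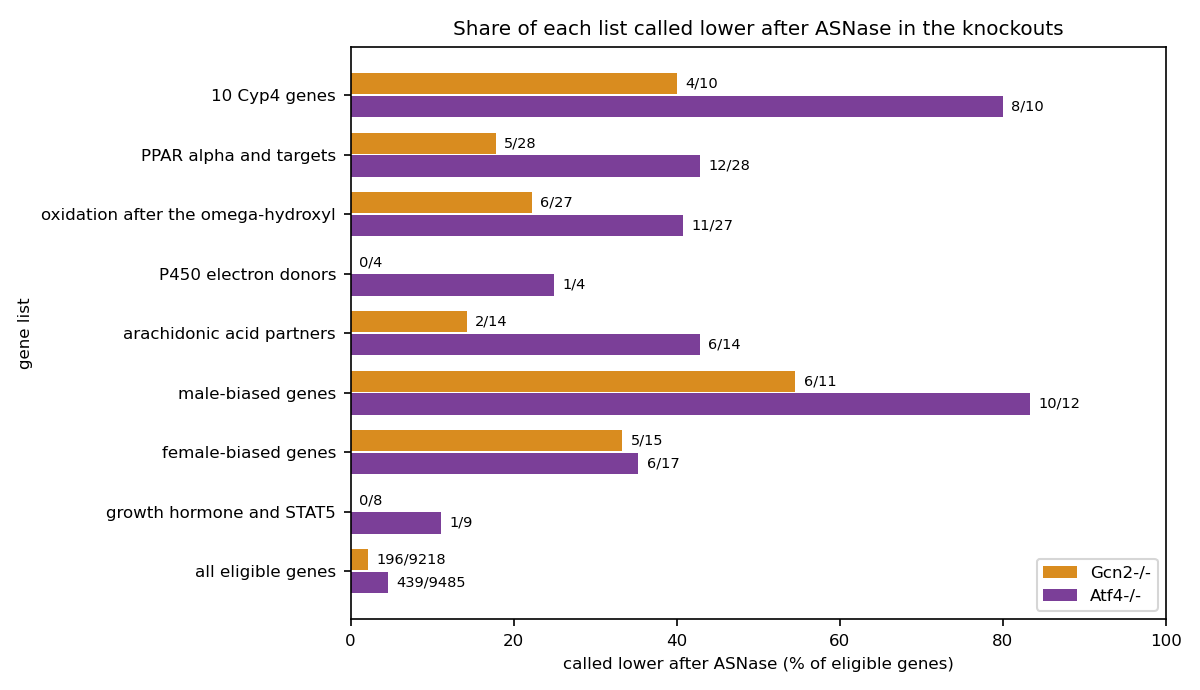
Share of eligible genes called lower after ASNase (%) in Gcn2-/- and Atf4-/- mice for the 10 Cyp4 genes, 7 gene lists and all eligible genes, with the counts beside each bar. The Cyp4 genes stand at 4 of 10 and 8 of 10, male-biased genes at 6 of 11 and 10 of 12, and all eligible genes at 2.13% and 4.63%. Some genes stand in several lists.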

How the data were processed

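Liver RNA of 18 mice (6 groups of 3, grouped by the strain and treatment in the sample labels) was measured by RNA-Seq. Per the study's methods and the submitters' processing notes, the authors sequenced poly-A libraries as 100 base single-end reads, used TopHat (on Bowtie) for alignment to mm10 and Cufflinks at default settings for assembly, and quantified the merged transcripts by Cuffdiff. The deposited table holds 1 FPKM per gene and group, pooled by the authors over 3 mice, with bounds and a status. FPKM scales reads by transcript length and by the total mapped, and the authors' software divides reads that match several copies, so values of near-identical genes depend on that division. The processed files give no depth per library. The read totals in the study's supplement were not used here, and no interval beyond the deposited bounds was computed.

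Groups were compared on log2(FPKM + 0.1) in 7 comparisons, with a minimum of 3 FPKM in either group, an absolute difference over 1.5 and bounds apart. There was no test, since no library values were analysed here, and p-values, SD and leaving out mice were not possible. The members, gene lists and rules were chosen with earlier results of these data known. The members and up to 3 genes from each list with the widest called differences are named, with Ppara and Por. Of the listed symbols, 1 matched more than 1 row and was not used. Likeness was Pearson's r over the 6 groups. Coding sequences came from GENCODE M21 (GRCm38), 1 longest coding transcript per gene, aligned with Biopython 1.88. Windows of 100 bases were searched in the other 27 annotated Cyp4 genes. Scripts used Python 3.11.15, pandas 2.3.3, numpy 2.4.6 and matplotlib 3.10.9. The call rule was tested on simulated data whose planted changes all lay far above the fold threshold. Recovery of changes near the threshold was therefore not tested. The rule missed part of the known changes, mainly those within the interval widths. The limits for passing were relaxed after a first run failed them, with the rule unchanged. In 8 alternatives, the pseudocount, minimum, fold, interval condition, scaling and handling of values at 0 were changed.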

Additional observations from a re-analysis of the deposited data

How the results depend on the processing

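Counts of members called stayed within 1.5 times of the value given in 54 of 56 recomputed counts, and no member lost a call in any of the 8 alternatives. Without the interval condition, 7 members instead of 4 were called in Gcn2-/- ASNase against Gcn2-/- PBS, with Cyp4a10, Cyp4a14 and Cyp4f15 added, and 1 instead of 0 in Gcn2-/- PBS against WT PBS, which was Cyp4a12a. That setting also added Cyp4a14 in Gcn2-/- ASNase against WT ASNase, and Cyp4a31 and Cyp4v3 in Atf4-/- ASNase against WT ASNase. It calls 607 instead of 340 of all eligible genes in the Gcn2-/- comparison. With a pseudocount of 1, Cyp4a12a differed by -5.28 in Atf4-/- ASNase against Atf4-/- PBS and by -5.49 against WT ASNase, and Cyp4a12b by -3.46 and -3.88. In Gcn2-/- ASNase, Cyp4a12b then differed by -2.33 against PBS and -3.67 against WT ASNase. Of 210 recomputed differences of single members, 0 reversed. Median-ratio scaling moved the median of all eligible genes by at most 0.06 (log2). No paired analysis was possible because the table holds 1 pooled value per group, and leaving out each mouse was not run for the same reason. The bounds, not the number of genes, limit what could be called: a bound 57.6% above and below the FPKM, the median of the members, leaves intervals overlapping for changes under 3.72 times.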
